A study of Paracentrotus lividus with 54 samples.

Results

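Of 112026 peaks of open chromatin listed for the prism stage of the sea urchin Paracentrotus lividus, 2146 (1.92%) shared no base with any peak listed for the 16-cell stage, the blastula or the gastrula. These are the peaks first seen in prism. They were chosen by that overlap alone, so their absence from the earlier lists is the rule and not a result. Earlier signal at these places too weak to be listed was not measured. Of the 2146 peaks, 387 overlapped a peak of the pluteus list and 1759 did not, and both classes are described apart. The 5 distinct peak lists of the series held 484062 peaks in all.

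The developmental samples were whole, wild-type embryos or larvae of normal development, with no treatment compared. The ATAC-seq lists are named for all samples of a stage: 2 at 16 cells, 7 at gastrula, 4 at prism and 2 at pluteus. For the blastula, the lists named for the early and late stage, with 6 and 7 samples, were identical, and 1 of them was used. The 4 prism samples were made from different numbers of nuclei. RNA-seq had 1 library per stage, 17 in all between the egg and the pluteus larva, with the prism at 36 hours and the pluteus larva at 48 hours after fertilization, against the early gastrula at 21 hours and the late gastrula at 24 hours. Adult RNA came from 5 tissues with 1 library each: Aristotle's lantern (the jaw apparatus), tubefeet, bodywall, gut and ovaries.

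ATAC-seq uses a transposase to cut and tag DNA that nucleosomes leave accessible, and promoters and enhancers in use are typical of such places. After gastrulation the sea urchin embryo becomes a prism: the gut tube opens to the mouth and is divided into regions, and the larval skeleton grows out from its spicules. The pluteus is the feeding larva, with arms held by skeletal rods. Many genes of the larval gut, skeleton, nervous system and ciliary band come into use over this interval.

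Peaks first seen in prism were mostly weak and narrow. The authors' area score, which sums the significance of the signal over a peak and is at least 200 in every list, had a median of 272 in these peaks (interquartile range 228 to 380, highest 2068) and of 630 in the other 109880 prism peaks. Their median width was 261 bp, against 391 bp in the other prism peaks, and their median -log10 p-value at the summit was 4.42, against 5.84. By rank, 738 of them (34.4%) lay in the lowest-scoring 10% of the prism list, and 0 lay in the highest-scoring 10%. The strongest of them ranked 20109 in the list, so the class held no peak of the top of the list. Together they covered 620.8 kb.

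**Figure D1:**
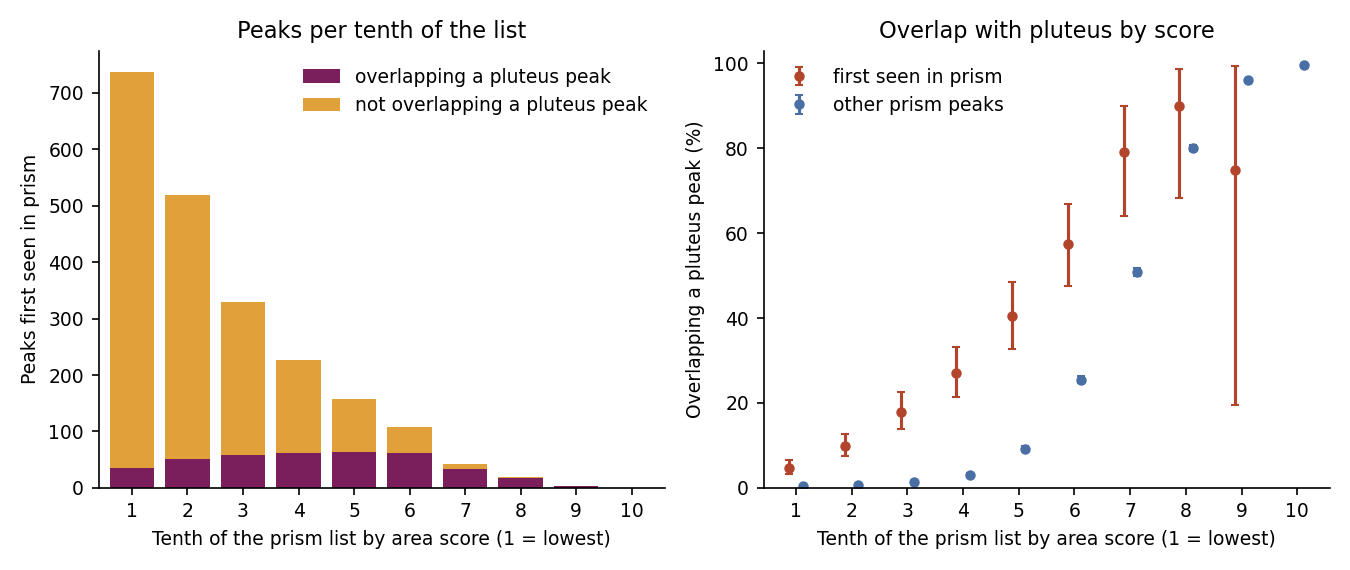
Left, the number of peaks first seen in prism in each 10% of the prism list by area score, split by overlap with a pluteus peak; 738 lie in the lowest 10% and 0 in the highest. Right, the percent of peaks that overlap a pluteus peak in each 10%, for peaks first seen in prism and for the other prism peaks, with exact 95% intervals; the share climbs with score in both classes, apart from the ninth step with its 4 peaks first seen in prism, and in the lowest 7 steps it is higher in peaks first seen in prism with no overlap of intervals.

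Overlap with the pluteus list, which the rule did not use, depended on score. Of all peaks first seen in prism, 18.0% overlapped a pluteus peak (387 of 2146, exact 95% interval 16.4 to 19.7), against 37.3% of the other prism peaks (37.0 to 37.6). Within each of the lower 3 quartiles by score the order was the other way. In the lowest-scoring quartile of the prism list, 8.06% of peaks first seen in prism overlapped pluteus (116 of 1439, 6.71 to 9.59), against 0.583% of the others (155 of 26568). In the second quartile the shares were 28.9% (154 of 532) in peaks first seen in prism and 5.24% in the others, and in the third they were 66.3% (110 of 166) in peaks first seen in prism and 45.4% in the others. The top quartile held 9 peaks first seen in prism, of which 7 overlapped pluteus (77.8%, 40.0 to 97.2), against 95.6% of the others. The intervals cover counting error only, since peaks of 1 list are not replicates. The pluteus list was made from 2 samples and held 44711 peaks, and the part of its length in these shares was not tested.

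The 387 peaks that overlapped pluteus met 386 pluteus peaks and mostly coincided with them. The summits lay a median of 8 bp apart, 335 of the pairs (86.6%) lay within 100 bp, and in 385 (99.5%) at least 50% of the shorter peak was shared. These pluteus peaks ranked low in their own list, with 86 of 386 in its upper 50%, at a median of the 28.7th percentile by area score (lowest 0.066, highest 97.9), against the 52.0th percentile for pluteus peaks that overlapped other prism peaks. Seen from the pluteus list, 522 of its peaks (1.17%) overlapped no 16-cell, blastula or gastrula peak. Of these 522, 369 (70.7%) overlapped a peak first seen in prism and 143 overlapped no prism peak. For 17 of the 387, the pluteus peak also reached an earlier peak that the prism peak did not touch. Prism scores were higher in the peaks that overlapped pluteus (median 440, width 307 bp) than in those that did not (median 258, width 249 bp).

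About as many of these peaks lay within 1 kb of an earlier peak as lay beyond it. The median gap to the nearest earlier peak was 1078 bp (interquartile range 381 to 2669.5 bp, longest 25198 bp). A gap of at most 500 bp was found for 679 of them (31.6%) and one of at most 1 kb for 1039 (48.4%), while 213 lay over 5 kb and 56 over 10 kb from any earlier peak. A further 3 lay on scaffolds with no earlier peak. The nearest earlier peak was a gastrula peak for 1501, a blastula peak for 639 and a 16-cell peak for 3. The median gap was 900 bp where the peak overlapped pluteus and 1125 bp where it did not.

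The rule's threshold fell in a thinly filled range. Just inside it lay peaks with gaps of 15, 72 and 78 bp, and just outside it lay prism peaks that shared 30, 72 and 75 bases with an earlier peak. Of the other prism peaks 0 shared 10 bases or fewer, 25 shared under 50% of the shorter peak, and the median share of their own width was 100%. Membership also depended on the length of the lists. When each list was cut to its 30683 highest-scoring peaks, 1990 prism peaks had no earlier overlap, and 14 of these were among the 2146. The cut of the prism list itself removed the rest of the 2146, so the number 14 follows from their low scores.

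**Figure D2:**
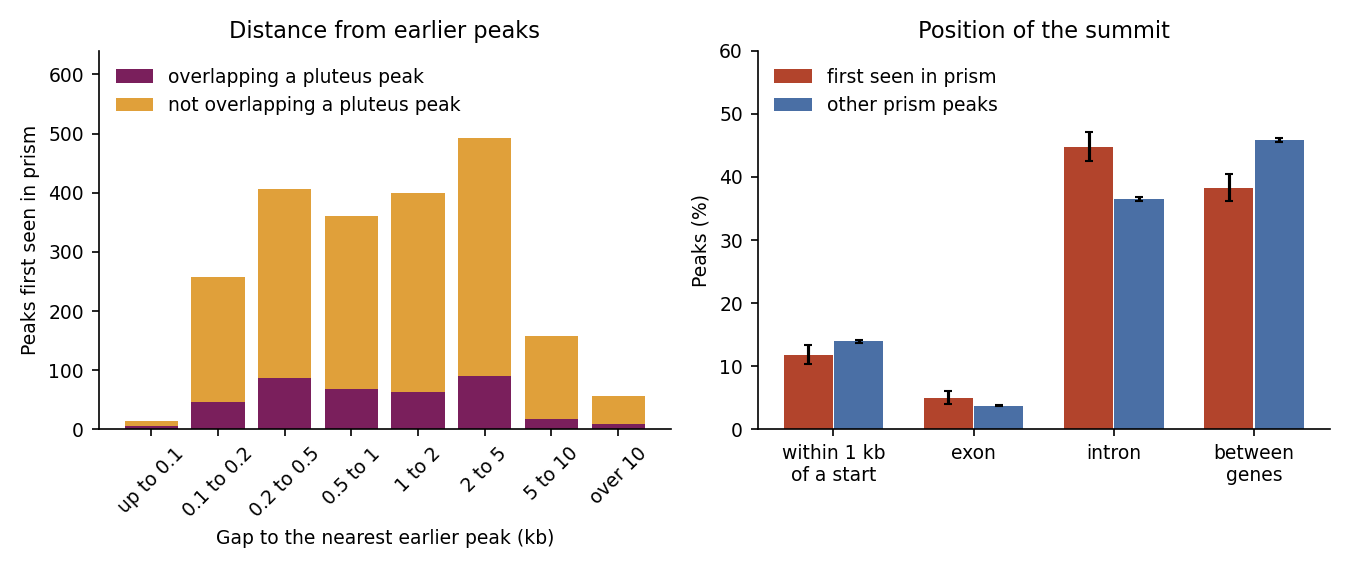
Left, the number of peaks first seen in prism by gap to the nearest earlier peak in kb, split by overlap with a pluteus peak; the most filled bin, 2 to 5 kb, holds 492. Right, the percent of summits within 1 kb of a gene start, and otherwise in an exon, in an intron or between genes, for peaks first seen in prism and for the other prism peaks, with exact 95% intervals; introns hold 44.8% of peaks first seen in prism and 36.5% of the others.

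Introns were the commonest place of these peaks. Positions come from the gene models of the deposited count table, on whose scaffolds 1908 of the 2146 summits lay. Of these, 44.8% fell in an intron (42.6 to 47.1), against 36.5% of the other prism peaks. A further 38.3% fell between genes (36.1 to 40.5), against 45.9%, and 5.03% in an exon away from a start, against 3.75%. Within 1 kb of a gene start lay 226 summits (11.8%, 10.4 to 13.4), against 13.9% of the other prism peaks. Of the 226, 58.4% were on the upstream side (51.7 to 64.9), against 43.0% of the other prism summits near a start.

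The share near a start climbed with score. It was 9.41% in the lowest-scoring quartile (7.86 to 11.2), against 9.96% of the other prism peaks there. In the second quartile it was 15.1% (12.0 to 18.6), against 10.7%, and in the third it was 20.5% (14.4 to 27.9), against 12.5%. Peaks that overlapped pluteus had 15.9% of their summits near a start (12.2 to 20.2) and those that did not had 10.9% (9.42 to 12.6). A window of 500 bp in place of 1 kb left 7.18% near a start, and one of 10 kb took in 53.7%. The sequence named 1 in the peak lists, with 229 of the peaks, has no gene model of that name and was left out of positions. Taken as Scaffold_174 of the gene table, which has no peaks, it gave 13.9% of its prism summits within 1 kb of a start, as on the other scaffolds (13.9%).

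Peaks first seen in prism were spread over the genome. On the 19 scaffolds with at least 1000 prism peaks, which held 2085 of them, they made up between 1.47% and 2.71% of the prism peaks, at 1.90 to 3.33 per Mb. Of these peaks, 232 (10.8%) had another such peak within 2 kb and 871 (40.6%) within 50 kb. Like shares for an equal number of other prism peaks were not computed, so clustering was not tested. Joining neighbours up to 50 kb apart gave 99 runs of at least 3 peaks with 353 members in all. In 10 of these runs, with 37 peaks, every prism peak was first seen in prism, and 7 of the 99 held no gastrula summit. None of the members overlapped pluteus in 45 runs and all did in 4. Over all peaks first seen in prism, 18.0% overlapped pluteus.

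The 3 runs described next were dense in peaks first seen in prism and are not typical. Over all 99 runs, the median share of a run's prism peaks that were first seen in prism was 42.9%. Of 67 runs that overlapped a tested gene, 25 overlapped a rising one. At Scaffold_2100:54157455-54164237, 6 peaks lay within 6.78 kb with no other prism peak and no gastrula summit between them, and 1 overlapped pluteus. They lay inside a gene model whose RNA stood at 4.63 CPM (counts scaled to the library total) in prism and 148.8 CPM in pluteus, against 7.00 CPM in early and 7.74 CPM in late gastrula. It rose with a log2 of 1.92 ± 0.41 (SE, edgeR adjusted p = 0.0055). Pluteus was above both gastrula libraries, while the place of prism depended on the scaling. With the TMM factors of the fit, the level was 12.6 in prism and 138.4 in pluteus, against 7.08 and 6.71 in early and late gastrula.

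At Scaffold_3433:37325034-37334799, 5 peaks, the only prism peaks there, held 0 that overlapped pluteus. Of the 5, 4 overlapped a gene at 8.22 CPM in prism and 15.8 CPM in pluteus, against 0.0921 and 0.364 CPM in early and late gastrula (log2 4.48 ± 0.88, SE, edgeR adjusted p = 0.0035). At Scaffold_3434:14840389-14858727, 7 of 8 prism peaks were first seen in prism and 0 overlapped pluteus. None of the 3 tested genes across that run passed the test, with fitted log2 values of -0.20, -0.11 and 0.10 (edgeR adjusted p = 0.848, 0.904 and 0.955). Their single libraries differed all the same. The first had 28.3 CPM in prism and 82.1 CPM in pluteus, against 34.3 CPM in late gastrula. The second had 13.4 and 149.9 CPM in prism and pluteus, against 69.0 CPM in late gastrula, and the third had 1.79 and 49.6 CPM, against 16.2 CPM. Pluteus was thus above late gastrula in all 3, and prism was below it in the second and the third on either scaling.

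The strongest peaks were of both kinds. The highest score among those overlapping pluteus, 2068, belonged to Scaffold_1721:35657352-35658184, with its summit 37 bp upstream of a gene start. RNA of that gene was at 12.6 CPM in prism and 99.3 CPM in pluteus, against 0.184 and 3.01 CPM in early and late gastrula, and at most 0.364 CPM in any earlier library. Both larval libraries were above all others, and the gene rose by a log2 of 6.73 ± 0.80 (SE, edgeR adjusted p = 3.2e-04).

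The next in score were Scaffold_3432:16208901-16209702 (score 1981), in an exon 3546 bp from the nearest start, and Scaffold_2100:69127248-69127664 (score 1885), with its summit 775 bp upstream of a start. That second gene did not pass the test: it had 0 counts in prism and 6.13 CPM in pluteus, against 6.91 and 7.38 CPM in gastrula (log2 -0.57 ± 0.57, SE, edgeR adjusted p = 0.630). The peaks of rank 4 and 5, at Scaffold_3433:30304213-30304877 (score 1801) and Scaffold_2100:24272628-24273137 (score 1728), lay 24006 and 35454 bp from a start, and 122 and 188 bp from an earlier peak.

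Among peaks with no pluteus overlap the highest score, 1941, was at Scaffold_3434:14840389-14841313, in the run of 7 described above and 8927 bp from an earlier peak. The second, at Scaffold_2100:68758309-68759118 (score 1474), had its summit 111 bp upstream of a start and no other prism or gastrula summit within 10 kb. Its gene was at 179.7 CPM in prism and 257.0 CPM in pluteus, against 18.2 and 45.6 CPM in gastrula (log2 3.37 ± 0.53, SE, edgeR adjusted p = 5.6e-04). The third, at Scaffold_3430:7611046-7611393 (score 1258), lay 358 bp upstream of the start of a gene at 19.9 CPM in prism and 117.0 CPM in pluteus, against 2.67 and 15.1 CPM in gastrula (log2 3.66 ± 0.36, SE, edgeR adjusted p = 6.7e-06). Both genes rose, with a start peak that met no pluteus peak. For the gene on Scaffold_3430, blastula and gastrula summits also lay within 1 kb of the start. Its start peak lay 340 bp from an earlier peak. The widest member, 1:30404888-30406166, spanned 1279 bp with a score of 829, and the most remote, 1:67265226-67265574, lay 25198 bp from any earlier peak with a score of 352.

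Of tested genes with a peak first seen in prism at the start, 32.4% were higher in the larva than in the gastrula, against 5.06% of all tested genes. The question was whether a peak first seen in prism went with a change of RNA, which the rule did not use. A spline over the 17 developmental libraries was fitted with edgeR, and the mean of the curve at prism and pluteus was set against that at early and late gastrula. A call needed an adjusted p under 0.05 over all 22940 tested genes and a log2 change of at least 1. In that comparison 1160 of all tested genes rose (5.06%) and 590 fell (2.57%). Summits of peaks first seen in prism lay within 1 kb of 221 gene starts, of which 179 genes passed the filter on low counts: 58 rose (32.4%, exact 95% interval 25.6 to 39.8) and 3 fell (1.68%).

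The median fitted log2 change was 1.56 in the 179 genes and -0.00 over all tested genes. Counted over all gene models, tested or not, the rising share was 26.2% (58 of 221, 20.6 to 32.6), against 3.42% of 33922. Genes with only another prism peak at the start rose in 5.36% of cases (525 of 9796). These are whole animals, so a larger share of cells that express a gene and more RNA per cell cannot be told apart.

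**Figure D3:**
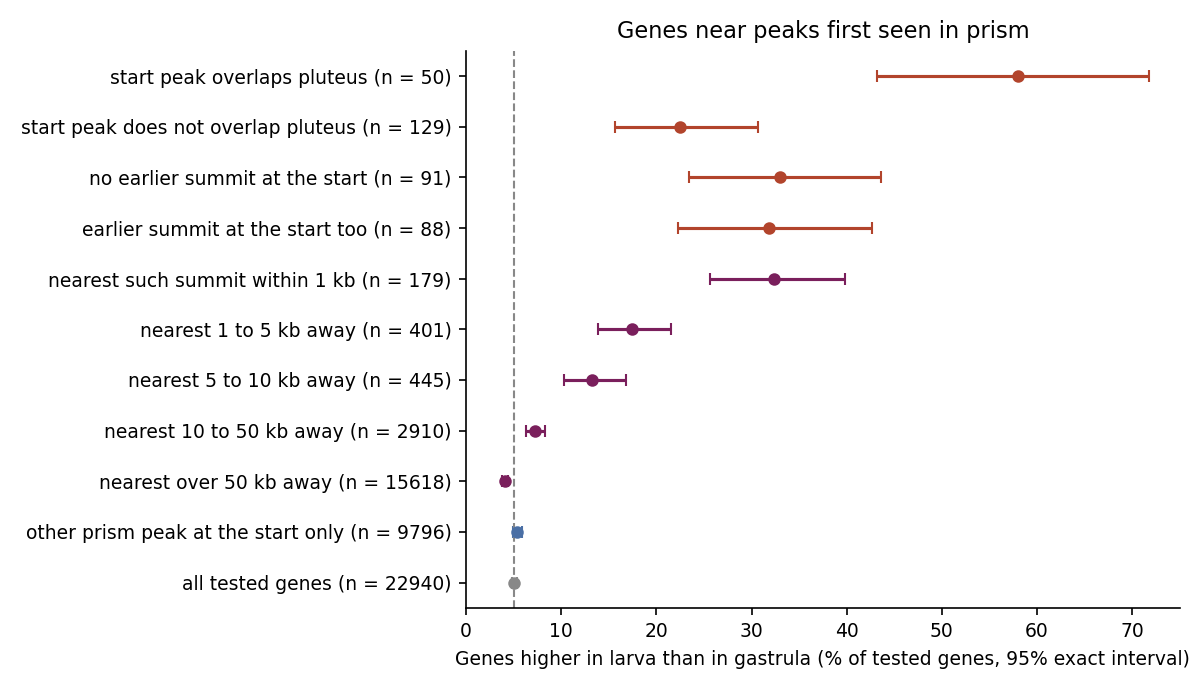
Percent of tested genes that were higher in larva than in gastrula (edgeR, adjusted p under 0.05 and log2 change of at least 1), with exact 95% intervals and the number of tested genes. The upper rows split the 179 genes with a peak first seen in prism at the start, the middle rows go by distance from the gene start to the nearest such summit, and the dashed line marks the 5.06% of all tested genes; the share is 58.0% where the start peak overlaps pluteus and 4.09% beyond 50 kb.

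The share differed with overlap with pluteus and with score. Where the start peak overlapped pluteus, 29 of 50 tested genes rose (58.0%, 43.2 to 71.8) and 1 fell, with a median log2 change of 2.72. Where it did not, 29 of 129 rose (22.5%, 15.6 to 30.7) and 2 fell, with a median of 0.96. The rising share was 20.5% (18 of 88) for start peaks in the lowest-scoring quartile of the prism list, 36.7% (22 of 60) in the second and 58.1% (18 of 31) in the upper 50%. Score and overlap with pluteus move together, and their separate parts were not tested.

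The shares with and without an earlier peak at the same start lay close together, with overlapping intervals. Of the 221 genes, 99 also had a 16-cell, blastula or gastrula summit within 1 kb of the start, 91 of them in gastrula. Among tested genes, 30 of 91 without an earlier summit rose (33.0%, 23.5 to 43.6) and 28 of 88 with one (31.8%, 22.3 to 42.6). The median log2 change was 1.83 without and 1.22 with an earlier summit. Summits upstream of the start went with 37.0% rising genes (40 of 108, 27.9 to 46.9) and those at or downstream of it with 25.4% (18 of 71, 15.8 to 37.1), and the intervals overlapped.

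The share of rising genes fell off with distance. It was 17.5% for genes whose start lay 1 to 5 kb from the nearest such summit (70 of 401, 13.9 to 21.5), 13.3% at 5 to 10 kb (59 of 445), 7.25% at 10 to 50 kb (211 of 2910) and 4.09% beyond 50 kb (639 of 15618). On scaffolds with no such peak under the same name it was 3.63% of 3387 genes. These scaffolds include Scaffold_174, with 2845 gene models, which may be the sequence named 1 with its 229 such peaks. Genes of Scaffold_174 thus count as having no such peak, also in the gene-body shares that follow. Genes with such a summit inside the gene body but none within 1 kb of the start rose in 16.0% of cases (116 of 725, 13.4 to 18.9), against 4.47% of genes with no such summit in the body or at the start. Their gene models were also longer, with a median span of 37.5 kb against 9.78 kb, and the part of length was not tested. Of 126 tested genes that overlapped the span of a run of at least 3 peaks, 34 rose (27.0%) and 1 fell. Of the 82 that overlapped a member of the run, 22 rose (26.8%). In the runs made only of peaks first seen in prism 5 of 6 rose. Of all tested genes 5.06% rose. The 6 genes are few, and some lie in runs described above, which were chosen after their values were seen. The part of gene length was not tested for runs either.

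**Figure D4:**
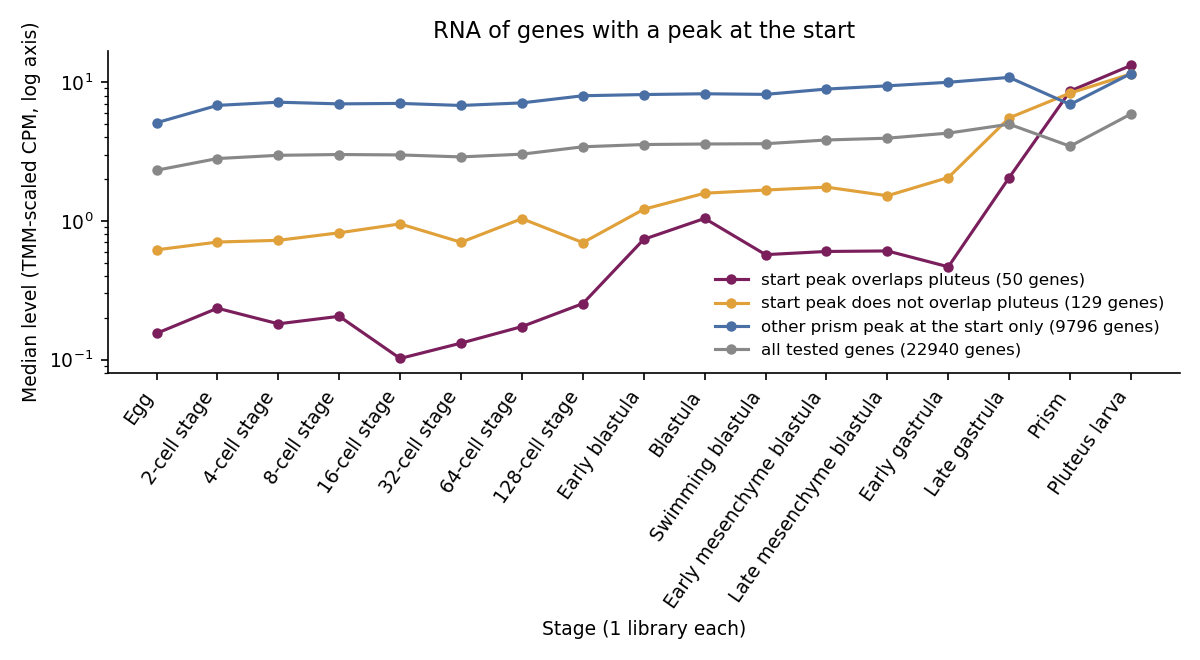
Median RNA level (TMM-scaled CPM, log axis) in each of 17 developmental libraries for genes whose start peak first seen in prism overlaps pluteus or does not, for genes with only another prism peak at the start, and for all tested genes. The 50 genes with pluteus overlap have a median of 13.2 in pluteus and 0.466 in early gastrula; the prism points rest on a TMM factor of 0.367.

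Over development, the median level of these genes was low until gastrulation and higher in pluteus. Their median level, in CPM scaled by TMM factors, was 8.33 in prism and 11.9 in pluteus, against 1.21 in early gastrula and 3.79 in late gastrula. Over all tested genes the medians were 3.45 in prism and 5.89 in pluteus, against 4.29 and 4.97 in early and late gastrula. In the egg the median was 0.617 for genes with a peak first seen in prism at the start and 2.32 for all tested genes. Where the start peak overlapped pluteus, the medians were 8.62 in prism and 13.2 in pluteus, against 0.466 and 2.05 in early and late gastrula. Where it did not, they were 8.33 in prism and 11.5 in pluteus, against 2.05 and 5.52. In both classes of genes the median in late gastrula was already above that in early gastrula. The place of prism turned with the scaling: on CPM of the library total the median of the 179 genes was 3.05 in prism and 12.8 in pluteus, against 1.20 and 4.37 in early and late gastrula. Over all tested genes it was then 1.26 in prism and 6.33 in pluteus, against 4.24 and 5.74.

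The trend over all 17 libraries passed the test in 149 of the 179 genes (83.2%), against 64.7% of all tested genes. The fitted curve was highest at the pluteus larva in 104 of the 149 (69.8%), against 4004 of 14841 (27.0%) of all tested genes with a trend. Without any fit, on TMM-scaled CPM plus 0.5, 55 of the 179 genes (30.7%) were at least 4-fold higher in pluteus than in late gastrula and 0 at least 4-fold lower, against 4.67% and 1.22% of all tested genes. In prism 55 were at least 4-fold higher than in late gastrula and 7 lower, against 9.08% and 10.8% of all tested genes. On CPM of the library total, 20 were higher in prism (11.2%) and 34 lower (19.0%), against 1.67% and 35.3% of all tested genes.

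The 58 rising genes had a median fitted log2 change of 3.79 (lowest 1.16, highest 9.09). On TMM-scaled CPM both larval libraries were above both gastrula libraries in 47 of them, against 876 of all 1160 rising genes (75.5%). The rising call used these same libraries. Among genes called or not, the order held in 92 of the 179 (51.4%) and in 16.6% of all tested genes. On CPM of the library total the counts were 40 of 58, against 566 of 1160 (48.8%), and 66 of 179 (36.9%), against 8.98% of all tested genes. On the TMM scale pluteus was above late gastrula in 57 of the 58 and prism in 48, against 1130 and 912 of the 1160. On the library total these counts were 57 and 40, against 1121 and 598. Of the 58, 26 stayed under 1 TMM-scaled CPM in each of the first 8 libraries. That count was not made for the 1160 or for all tested genes, so it is not a trait particular to the 58. The highest of the 17 libraries was pluteus for 31 and prism for 20 of the 58 on the TMM scale, against 521 and 382 of all 1160 rising genes. On CPM of the library total it was pluteus for 47 and prism for 3, against 744 and 115 of the 1160.

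The prism RNA library stood apart from the other 16. It placed 49.4% of its counts on its top 100 genes, against 24.6% to 38.2% in the others, and its TMM factor was 0.367. Developmental library totals were between 15732056 and 29677432 counts. Left out, the prism library changed the calls little: 58 of 176 genes rose (33.0%), 55 of them among the 58 above, against 5.38% of all tested genes. Without the late mesenchyme blastula library 36 of 176 rose (20.5%), against 2.96% of all tested genes. Without the pluteus library 51 of 167 rose (30.5%), against 8.97%, and the number of falling genes among them was 10.

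**Figure D5:**
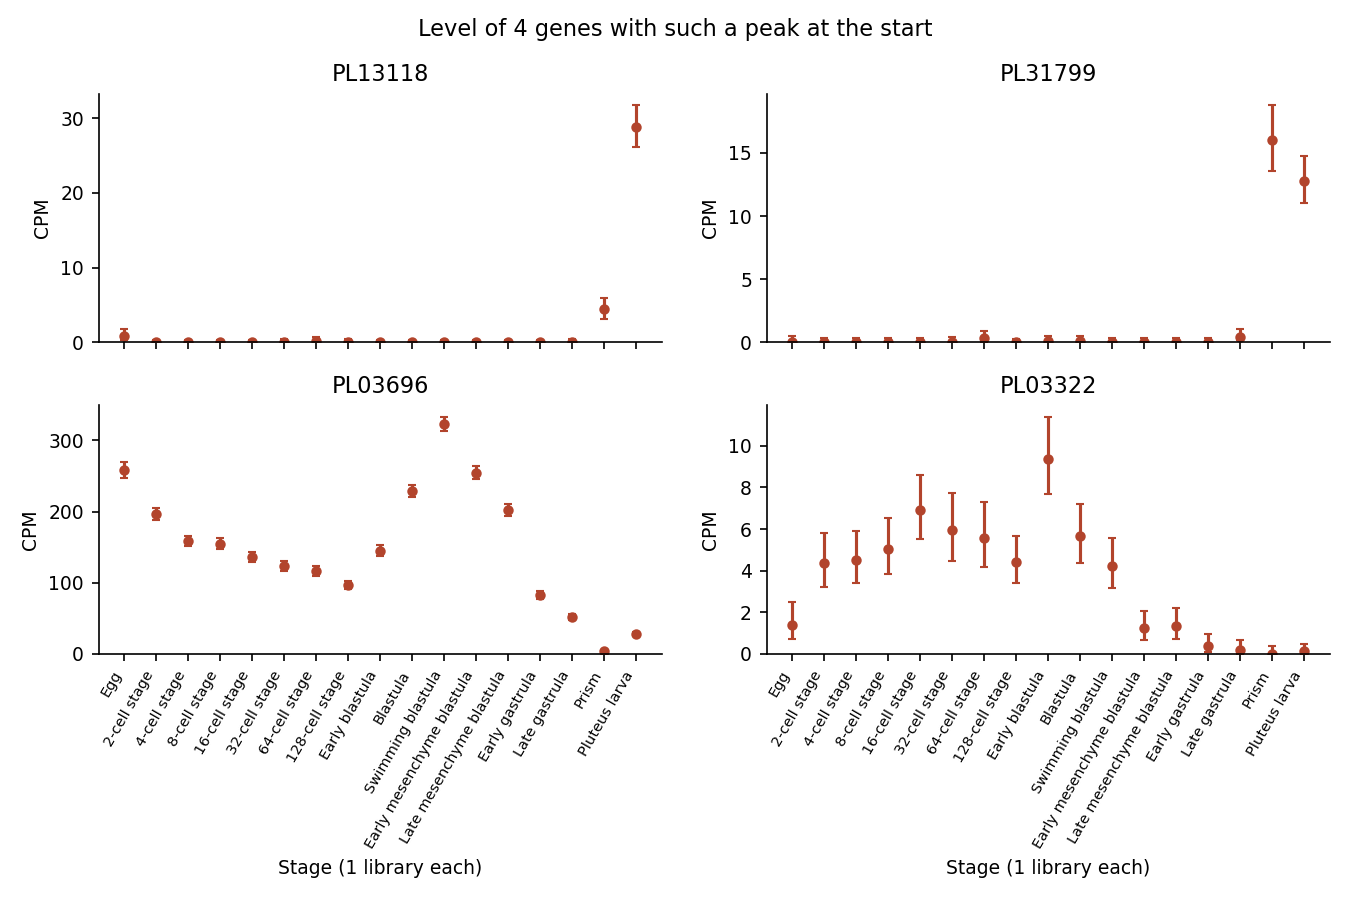
Level (CPM of the library total) of PL13118, PL31799, PL03696 and PL03322 in each of 17 developmental libraries, with exact 95% counting intervals. PL13118 and PL31799 stand above 4 CPM in prism and pluteus only, PL03696 is lowest in prism at 4.53 CPM, and PL03322 is near 0 from gastrula on.

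The files pair gene identifiers with no names, so the genes with the largest changes are given by identifier. PL13118 (Scaffold_3428:30796193-30807047, plus strand) had 4.42 CPM in prism and 28.8 CPM in pluteus, against 0 and 0.0911 CPM in early and late gastrula. Both larval libraries were above the other 15, of which the egg was highest at 0.890 CPM. The pooled ratio of larva to gastrula was 422 (exact 95% interval 75.3 to 16692, on 470 against 1 counts after division by 2), and the curve rose by a log2 of 9.09 ± 1.31 (SE, edgeR adjusted p = 2.8e-04). Without the pluteus library the fitted value, on the curve extended to pluteus, was 13.95. Its member peak at 30795763-30795935, with a score of 233, lay 318 bp upstream of the start and 115 bp from an earlier peak. Blastula, gastrula, pluteus and other prism summits were also found within 1 kb of this start. In the adult the gene was at 97.0 CPM in bodywall and 17.9 CPM in gut.

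PL31799 (Scaffold_641:7200992-7225260, plus strand) had 16.0 CPM in prism and 12.8 CPM in pluteus, against 0 and 0.455 CPM in early and late gastrula. Here prism was the highest of the 17 libraries. The pooled ratio was 61.4 (26.0 to 190, on 342 against 5 counts after division by 2), and the rise had a log2 of 8.75 ± 1.97 (SE, edgeR adjusted p = 0.0116). That call was lost without the late mesenchyme blastula library (adjusted p = 0.0583) and without the early gastrula library (adjusted p = 0.0558), and the value was 5.88 without the prism library. Its member peak at 7200718-7201185, with a score of 526, had its summit 23 bp upstream of the start, 3349 bp from any earlier peak, and was the only summit of any list within 1 kb of this start. Fitted changes of both genes depend on the prior count used against libraries at 0.

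Falling genes were 3 of the 179. PL03696 (Scaffold_1721:19137278-19143235, minus strand) had 4.53 CPM in prism and 28.0 CPM in pluteus, against 82.8 and 52.0 CPM in early and late gastrula, and was highest in the swimming blastula at 322.6 CPM. Both larval libraries were below all others. The gene fell, with a log2 of -2.00 ± 0.35 (SE, edgeR adjusted p = 0.00135). The value was -3.56 without the pluteus library, on the curve extended to pluteus. The member peak at 19142588-19142705, with a score of 228, had its summit 577 bp inside the gene.

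PL03322 (Scaffold_1721:6920710-6922607, minus strand) passed the test with a log2 of -1.91 ± 0.54 (SE, edgeR adjusted p = 0.0315), but the levels compared were near the limit of detection. It had 0 CPM in prism and 0.135 CPM in pluteus, against 0.369 and 0.182 CPM in gastrula, and a pooled ratio of 0.299 (0.0295 to 1.67, on 2 against 6 counts after division by 2). A count of 0 in the prism library allows up to 0.316 CPM, taking 3 counts after division by 2 as the limit. The call was lost without the late mesenchyme blastula library (adjusted p = 0.115). The change was -3.93 without the pluteus library, on the curve extended to pluteus. Its member peak at 6921912-6922508, with a score of 1030, overlapped a pluteus peak.

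In at least 1 adult tissue, genes with a peak first seen in prism at the start reached 5 CPM about as often as all tested genes. Of the 179 tested genes 117 (65.4%) reached 5 CPM in at least 1 of 5 adult tissues, against 62.4% of all tested genes. The share at 5 CPM was 54.2% in bodywall, against 49.2% of all tested genes, and 43.0% in gut, against 34.0%. It was 33.0% in Aristotle's lantern, against 22.1%, and lower in ovaries at 27.9%, against 42.3%. In tubefeet it was 34.6%, against 43.5%. Of the 58 rising genes 38 (65.5%) reached 5 CPM in at least 1 tissue, against 75.8% of all 1160 rising genes. Each tissue had 1 library, so none of these differences was tested.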

How the data were processed

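The deposited peak lists hold the authors' area score and -log10 p-value for each peak, per the file headers and values. Bowtie2 2.4.1 and Genrich are named in the submitters' processing notes. Lists are named for all samples of a stage and were read as pooled, so no peak has values per sample. Coordinates follow the deposited files, 1-based, with a genome build not given in the sources used here. The deposited count table holds whole-number counts per gene model; STAR 2.5.2b and featureCounts 1.6.1 made it, per the submitters' processing notes. The strand counted was not tested. Every developmental count was even, so count intervals used counts divided by 2. The main edgeR fit used the counts as deposited. Fitted on counts divided by 2, 66 of 159 genes with a peak first seen in prism at the start rose (41.5%), against 6.61% of 20219 tested genes.

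Overlaps were found in Python 3.11.15 and recounted with bedtools 2.31.1. Intervals are Clopper-Pearson and cover counting error only. RNA was fitted with edgeR 4.0.16 (R 4.3.3): quasi-likelihood test, TMM, filterByExpr, a natural spline on stage order (4 degrees of freedom, 12 residual) and Benjamini-Hochberg adjustment. With 1 library per stage, p-values measure scatter around the curve. The test gives no SE, so each SE printed is the size of the log2 change divided by the square root of the F statistic. In simulated counts of the larva against gastrula comparison (22940 genes), 96 of 100 genes changed 8-fold along a curve of the fitted kind were called, 82 of 100 changed 4-fold and 7 of 22740 unchanged ones. Of genes stepping abruptly in prism and pluteus, 29 of 100 (8-fold) and 6 of 100 (4-fold) were called, with a median log2 estimate of 1.85 for a true 3. Changed genes were drawn only from those with a mean above 100 counts per library. The shares called thus do not give the power for genes with low counts. The abrupt step was simulated first, and the curve was added after seeing its result.

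Genes named were the 2 rising and 2 falling most, with an adjusted p under 0.05, a log2 change of at least 1 in size and 5 CPM in 1 library. Peaks named were the strongest 5 with and 3 without pluteus overlap, those of named genes, the widest, the most remote and those nearest the rule's threshold. The 3 runs described were chosen after their values were seen. Members, lists and tests were chosen with earlier results of these data known. CUT&Tag samples were not analysed here.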

Additional observations from a re-analysis of the deposited data

How the results depend on the processing

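The number of peaks first seen in prism was 1107 with no earlier peak allowed within 1 kb, 216 within 5 kb and 175 in the upper 50% of the prism list by score. Asking for 50% overlap or a gap of 100 bp moved it by less than 1.5 times. Lists of equal length gave a like number, 1990, but mostly other peaks. Only 14 of them were among the 2146, since the cut of the prism list itself removed the rest for their low scores. The share overlapping pluteus was 30.5% in the upper 50% of their own scores and 16.3% at 1 kb or more from an earlier peak. The share near a start was 7.18%, 34.4% and 53.7% with windows of 500 bp, 5 kb and 10 kb, and 14.4% in the upper 50% of scores. Rising genes near such peaks numbered 128 and 187 with windows of 5 and 10 kb (falling 9 and 18), and 36 with at least 5 CPM in 3 libraries. Falling genes near such peaks were 1 with library size alone, 6 with 3 and 1 with 5 spline degrees of freedom. All falling genes were 332, 1047 and 145 under these settings. All rising genes were 728 with 5 degrees of freedom and 2031 with the DESeq2 Wald test. The causes were not tested. Over all 8 other fits the rising share near such peaks was 26.3% to 41.5%, and 3.85 to 8.27 times the share of all tested genes. Leaving out 1 library at a time gave 36 to 58 rising and 2 to 10 falling genes near such peaks, and 673 to 2006 rising and 321 to 2494 falling genes in all. The lowest rising counts came without the late mesenchyme blastula library, and the highest falling counts without the pluteus library. Fits without pluteus extended the curve to a stage with no data. Leaving out single libraries gave log2 changes of 8.24 to 13.95 for PL13118, 5.88 to 9.09 for PL31799, -3.56 to -1.87 for PL03696 and -3.93 to -1.69 for PL03322. With 5 spline degrees of freedom PL31799 (adjusted p = 0.0579) and PL03322 (adjusted p = 0.280) lost their calls, as did PL03322 with library size alone (adjusted p = 0.0855). With 5 CPM in 3 libraries PL13118 and PL31799 were not tested, nor was PL31799 without the pluteus library. Taking the sequence named 1 as Scaffold_174 and counting only peaks in the upper 50% of scores at gene starts, and levels on CPM of the library total, were chosen after seeing the data. No paired analysis was possible because each stage has 1 RNA library and the peak lists are pooled.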
